A study of Mus musculus with 24 samples.

Results

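Splenic macrophages of the mouse genotype Z165KO (KO) were compared with splenic macrophages of wild-type mice (WT) by bulk RNA sequencing. The comparison took all 6 splenic libraries among the 24 of the series, 3 KO and 3 WT, as the labels name them. Each splenic sample was RNA of macrophages sorted from digested spleen, and the other libraries were lung alveolar macrophages, liver Kupffer cells and brain microglia from both genotypes. The labels give no strain, sex, age or treatment, describe neither the Z165KO allele nor the sorting gate, and do not say whether the 3 libraries of a group came from separate animals. The p-values below therefore rest on the spread among these libraries, and that spread may be technical.

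The spleen's red pulp macrophages take up aged erythrocytes, split their heme with the oxygenase encoded by Hmox1 and return the iron to the blood through ferroportin, encoded by Slc40a1. The transcription factor Spic is needed for these cells to form. The title of the series names cMaf and Zeb2. Zeb2 is a zinc-finger repressor and activator that binds E-box motifs and acts in the development of several blood and immune cells, and cMaf, encoded by Maf, is a leucine-zipper transcription factor of macrophages and lymphocytes.

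The 6 libraries held between 51613880 and 63234480 counts assigned to genes in KO and between 54754295 and 56266657 in WT, and 17808 of 55487 genes passed the filter on low counts. Each library is named by genotype and replicate (KO1, WT3), and levels are counts scaled to the library total (CPM), which are not scaled to gene length. On the first principal component, which held 38.5% of the variance, the KO libraries stood at −55.2, −72.3 and −65.1 and the WT libraries at 106.1, 44.1 and 42.3. The genotypes were apart on that axis, and the WT libraries were spread more widely than the KO libraries. Replicates of a group differed by far more than sampling noise, with a chi-square per degree of freedom between 63.4 and 121, and no pair within a group was the same library deposited again.

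The label was first set against its defining markers. Spic had 1716, 1593 and 1422 CPM in KO1, KO2 and KO3, against 1639, 1446 and 1343 CPM in WT1, WT2 and WT3. Hmox1 had 5429, 5486 and 4567 CPM in KO libraries, against 4665, 5492 and 4487 CPM in WT libraries, and Slc40a1 had 4241, 4643 and 4984 CPM, against 4583, 6249 and 5830.5 CPM in WT. All 3 markers were abundant in every library, and the genotypes overlapped at each of them. The log2 fold change, KO over WT, was 0.14 ± 0.12 for Spic (SE; adjusted p = 0.713 by edgeR's quasi-likelihood test), 0.12 ± 0.13 for Hmox1 (0.78) and −0.23 ± 0.14 for Slc40a1 (0.605). In the other 3 cell types, mean Spic ranged from 0.191 CPM in microglia to 167 CPM in Kupffer cells in KO, and from 0 CPM in microglia to 137 CPM in Kupffer cells in WT.

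Zeb2, on chromosome 2 of the mm10 build (44983632 to 45117395, minus strand), had 322, 319.9 and 318 CPM in KO libraries, against 329.7, 296 and 305 CPM in WT libraries. The KO values lay inside the WT range, and the log2 fold change was 0.09 ± 0.09 (95% interval −0.13 to 0.30; adjusted p = 0.774). Zeb2os, an antisense RNA gene on the opposite strand inside the Zeb2 gene (45110707 to 45114087), had 5.10, 6.66 and 4.36 CPM, against 6.39, 6.34 and 5.94 CPM in WT, and was not called either (adjusted p = 0.858). No source used here says whether the counting kept strand, so reads of the stretch that both genes share cannot be told apart. Counts over a whole gene do not show whether an exon or a regulatory element was altered. Maf, a transcription factor of macrophages, had 59.8, 45.9 and 47.7 CPM in KO, against 49.0, 51.9 and 66.2 CPM in WT (−0.09 ± 0.18; adjusted p = 0.894), also with overlapping genotypes.

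Of the genes that edgeR called, most were lower in KO, while DESeq2 called more genes higher than lower. At an adjusted p under 0.05, 133 of 17808 genes were called, which is 0.747% of those tested. Of these, 23 were higher in KO (0.129%) and 110 lower (0.618%), and the median log2 fold change of all genes was −0.00295. At an unadjusted p under 0.05 there were 2079 of 17808 genes. DESeq2 called 988 of the 20435 genes it tested, 543 higher and 445 lower. For the gene lists below, counts at an unadjusted p under 0.05 and DESeq2 calls stand beside these shares. The DESeq2 calls were taken over all members of a list, also those that failed edgeR's filter. The KO and WT libraries did not overlap at any of the 133 genes, which was also so for 3557 genes (20% of those tested) in all. Leaving out 1 library lowered the count to 46 without KO1, 38 without KO2, 55 without KO3, 44 without WT1, 18 without WT2 and 90 without WT3. The genes called lower numbered 41, 36, 53, 37, 16 and 64 in the same order, and those called higher 5, 2, 2, 7, 2 and 26. All 133 genes kept their sign in these 6 fits, and 14 of them stayed called in all 6: Arc, which was higher in KO, and Cd37, Cd79b, Cr2, Dennd5b, Ebf1, Gpr141, Ighd, Igkj5, Mef2c, Pax5, Pou2af1, Siglecg and Tnfrsf13b, which were lower. The fit of all 24 libraries shared 72 of the 133 calls, 5 of them higher in KO, and Arc, Cd79b (adjusted p = 0.101) and Dennd5b (adjusted p = 0.134) were among those not called in it.

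**Figure D1:**
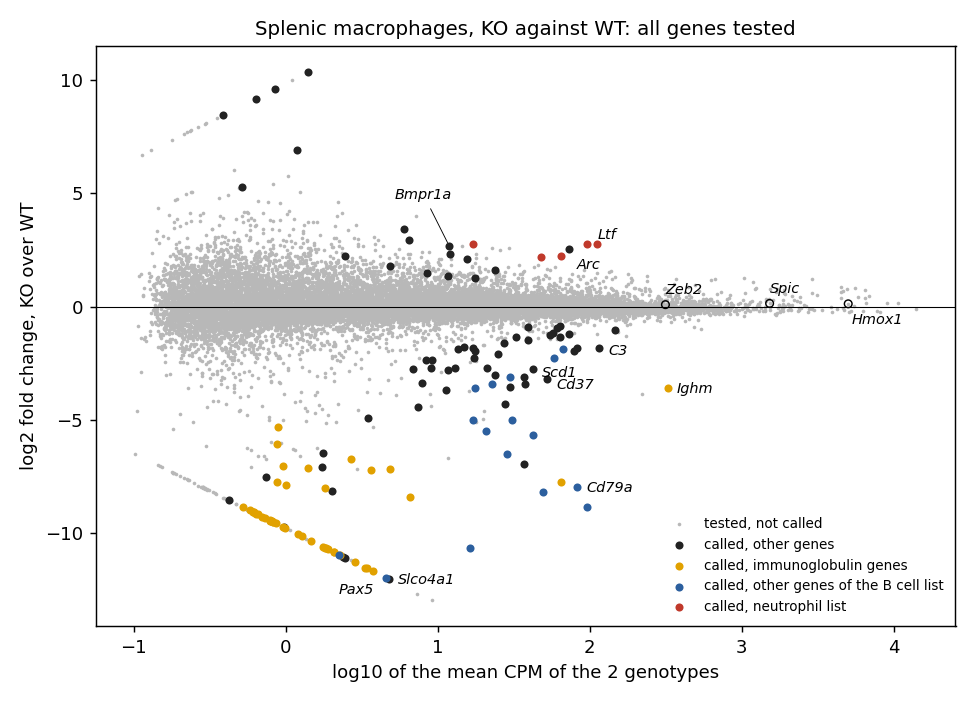
Log2 fold change of each tested gene, KO over WT (vertical axis), against its mean level in CPM over the 6 splenic libraries (horizontal log10 axis). Coloured points are the 133 called genes, by class, and open circles mark Spic, Hmox1 and Zeb2, which lie near 0; the 46 immunoglobulin genes among the called genes all lie below 0, and the points along the slanted edges have 0 counts in 1 genotype, where the fitted value depends on the prior count.

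Many of the genes called lower were B cell genes, and 18 of the 24 genes of the B cell list were called lower in KO. All 24 passed the filter, with a median log2 fold change of −4.98. The KO and WT libraries did not overlap at any of the 24, against 20% of all genes tested. At an unadjusted p under 0.05 there were 23, and DESeq2 called 22. The CPM of the 24 genes summed to 438, 418 and 573 in KO libraries, against 3351, 2408 and 2540 in WT libraries. In sorted cells measured in bulk, fewer B cells and less B cell RNA per cell cannot be told apart. The count of called genes was 12 without KO1, 10 without KO2, 15 without KO3, 12 without WT1, 7 without WT2 and 16 without WT3.

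Among the transcription factors that set B cell identity, Pax5 (chromosome 4, 44524757 to 44710487, minus strand) had no count in any KO library, against 11.3, 6.26 and 9.92 CPM in WT libraries. Against a floor of 3 counts over the KO group (0.0176 CPM), that is at least 519-fold lower in KO (adjusted p = 0.00805). Ebf1, which acts with Pax5 in early B cell development (chromosome 11, 44617317 to 45008091, plus strand), had 0, 0.0194 and 0.0316 CPM in KO, against 42.6, 29.7 and 25.6 CPM in WT (3 counts in all against 5440; adjusted p = 0.00125). Both factors were at or near 0 in every KO library and present in every WT library. Pou2af1, a coactivator of immunoglobulin gene transcription, had 0.814, 0.387 and 1.39 CPM in KO, against 48.3, 33.3 and 40.2 CPM in WT (−5.50 ± 0.43; adjusted p = 0.00581). Spib, an Ets factor of B cells and plasmacytoid dendritic cells, had 1.81, 0 and 1.80 CPM, against 41.5, 32.4 and 42.6 CPM in WT, and was not called (−4.97 ± 0.97; adjusted p = 0.0877), with its highest KO value in KO1.

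Signal chains of the B cell antigen receptor and a complement receptor of B cells fell together. Cr2, complement receptor 2, had 2.79, 1.08 and 1.61 CPM in KO libraries, against 74.1, 44.4 and 61.5 CPM in WT libraries (−4.99 ± 0.38; adjusted p = 0.00581). Cd79a, which carries the signal of the receptor into the cell (chromosome 7, 24897381 to 24902197, plus strand), had 1.16, 0.794 and 0.0158 CPM, against 214, 139 and 142 CPM (−7.95 ± 0.81; adjusted p = 0.0106). Its partner chain Cd79b had 31.9, 25.6 and 26.1 CPM, against 109, 90.9 and 116 CPM (−1.87 ± 0.15; adjusted p = 0.00581). Every KO library lay below every WT library at these 3 genes, and Cd79b was the one that kept a sizeable level in each KO library. The Cd79a call did not hold without KO2 (0.0712) or WT2 (0.0616).

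The surface genes of mature B cells followed the same order. Ms4a1, which encodes CD20, had 1.36, 2.81 and 0.585 CPM in KO, against 112, 68.4 and 67.3 CPM in WT (−5.65 ± 0.58; adjusted p = 0.0106, not called without KO1 (0.0703) or WT2 (0.0616)). Fcer2a, the low-affinity IgE receptor CD23, had 0.868, 0.911 and 0 CPM, against 78.5, 38.5 and 51.5 CPM in WT (−6.53 ± 0.93; adjusted p = 0.0352, not called without any 1 library other than KO3 (0.0732 to 0.126)). Fcmr, the Fc receptor for IgM, had 0.579, 0.426 and 0 CPM, against 136, 80.9 and 76.8 CPM (−8.17 ± 0.77; adjusted p = 0.00979, not called without KO2 (0.059) or WT2 (0.0551)). All 3 were close to 0 in each KO library, and no WT library came near those levels. Cd22, an inhibitory lectin of the antigen receptor, was present in every KO library, with 21.4, 17.8 and 19.6 CPM, against 125, 70.9 and 94.3 CPM (−2.26 ± 0.20; adjusted p = 0.00873, not called without KO2 (0.0581)). Other called members were the receptor Cd72 (log2 fold change −3.09), the guanine exchange factor Ralgps2 (−3.41), the Fc receptor relative Fcrla (−3.59), the kinase Blk (−5.01) and the pre-B cell gene Vpreb3, which had no count in KO and was at least 255-fold lower. Their calls did not hold for Cd72 without KO1 (0.102), KO2 (0.126), KO3 (0.12) or WT2 (0.0753), for Ralgps2 without KO1 (0.0628), KO2 (0.0646), KO3 (0.0594) or WT2 (0.0545), for Fcrla without KO3 (0.0772), WT1 (0.0506) or WT2 (0.0616), for Blk without any 1 library other than KO3 (0.0659 to 0.125) and for Vpreb3 without WT1 (0.0506) or WT2 (0.072).

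Of the 6 members that were not called, Bank1, a scaffold of B cell signalling, had 234, 254 and 276 CPM in KO, against 279, 346 and 309 CPM in WT (−0.26 ± 0.13; adjusted p = 0.511). Fcrl1 had 87.1, 59.9 and 60.7 CPM, against 114, 123 and 94.6 CPM (−0.63 ± 0.18; adjusted p = 0.249). These 2 list members stayed at high levels in KO libraries while Pax5 and Ebf1 were near 0 there. The other members without a call were Spib, Cxcr5 (adjusted p = 0.0786), Tnfrsf13c (0.135) and Igkc (0.321).

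Immunoglobulin genes were 46 of the 133 called genes. All 46 were lower in KO: 40 variable (15 heavy chain, 24 kappa and 1 lambda), 3 joining and 3 constant genes. Of these 46, 33 had no count in any KO library. The CPM of all immunoglobulin genes summed to 39.6, 36.8 and 265.6 in KO libraries, against 1882, 1349 and 1549 in WT libraries. KO3 held several times more of this RNA than KO1 and KO2, and still far less than any WT library. At least 1 count was found for 16, 12 and 31 of 218 annotated variable genes in KO libraries, against 190, 197 and 186 in WT libraries. Variable genes resemble each other closely, and no source used here says how reads that match several of them were counted, so single variable genes are uncertain and the sum over all of them is the firmer value.

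Among the constant genes of the isotypes, some were called and some were not. Ighd, the constant gene of IgD on mature naive B cells, had 0.850, 0.639 and 0.269 CPM in KO libraries, against 167, 102 and 119.6 CPM in WT libraries (−7.75 ± 0.42; adjusted p = 0.00236). Ighm, the constant gene of IgM, had 29.4, 32.4 and 87.1 CPM in KO, against 666, 529.9 and 616 CPM in WT (−3.58 ± 0.42; adjusted p = 0.0176, not called without KO1 (0.0628), KO2 (0.0842), WT1 (0.0706) or WT2 (0.0753)). KO3 was the highest KO library for Ighm, and no KO library reached WT. Igkc, the kappa constant gene, had 3.78, 1.40 and 79.0 CPM, against 504, 361 and 370.2 CPM (−3.87 ± 1.33; adjusted p = 0.321). Igha, the constant gene of IgA, had 0.253, 0.349 and 31.3 CPM in KO, against 3.19, 2.50 and 0.764 CPM in WT, so that its highest library of all was KO3, and Jchain, which joins IgA and IgM units, had 0.253, 0.252 and 13.8 CPM, against 13.7, 13.8 and 20.6 CPM. Neither was called (adjusted p = 0.659 for Igha and 0.682 for Jchain). Of the 12 tested genes of the plasma cell list, 11 were lower in KO and 1 was called, Iglc3, at 0.0362, 0 and 0.142 CPM, against 10.98, 6.59 and 11.4 CPM in WT (adjusted p = 0.0147, not called without KO1 (0.0798), WT1 (0.0613), WT2 (0.072) or WT3 (0.0507)). At an unadjusted p under 0.05 there were 6, and DESeq2, taken over all 15 list members, called 7.

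**Figure D2:**
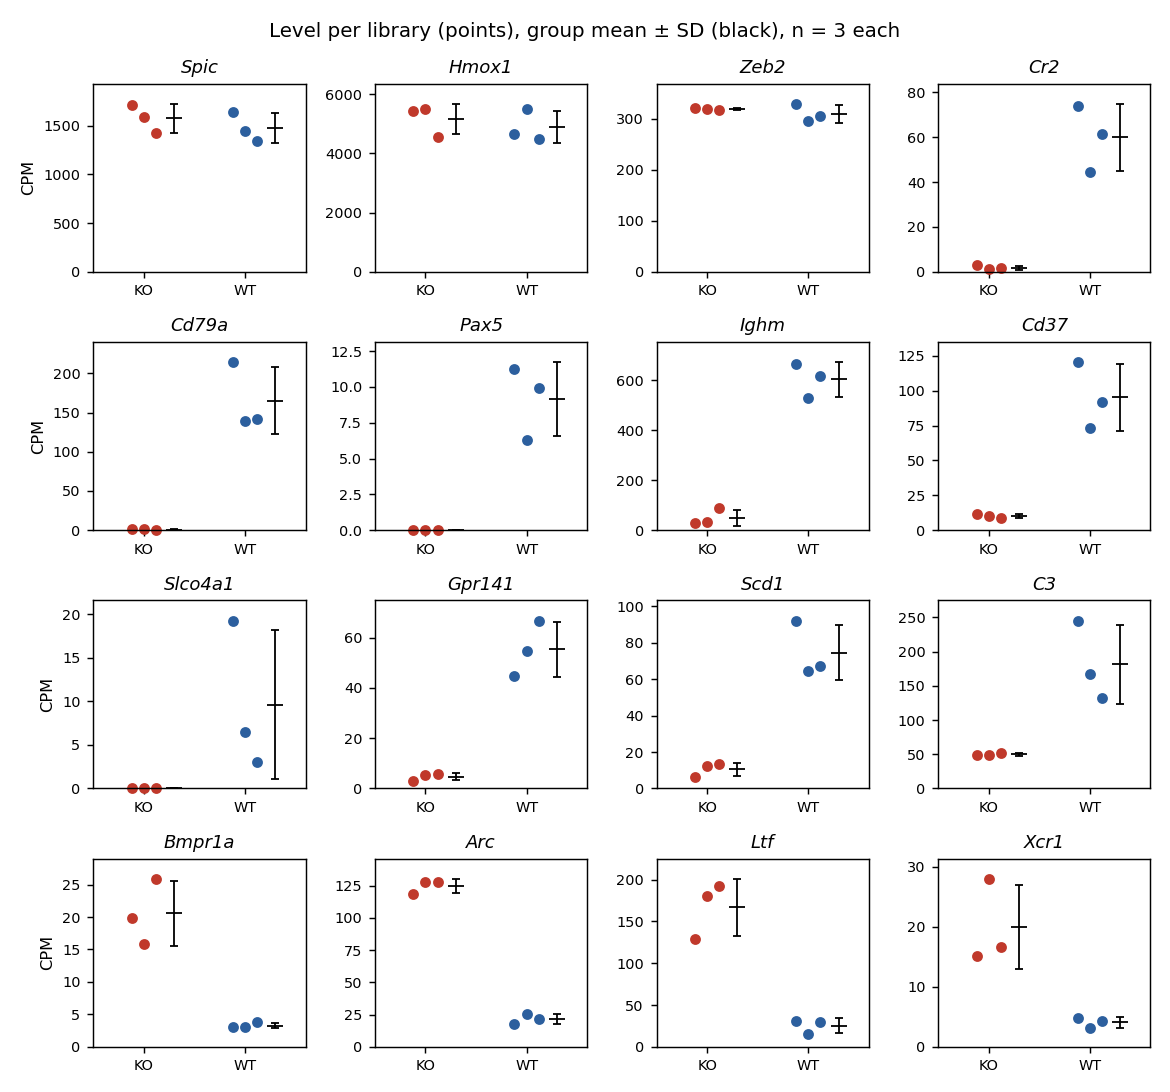
CPM of 16 genes in each splenic library (vertical axes, each with its own scale from 0), KO left and WT right, with the mean ± SD of 3 libraries in black. Spic, Hmox1 and Zeb2 overlap between the genotypes; Cd79a and Pax5 lie at or near 0 in all 3 KO libraries, and Bmpr1a, Arc, Ltf and Xcr1 lie higher in all KO than in all WT libraries.

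The B cell gene Cd79a had low levels in the KO libraries of other organs as well. Mean Cd79a was 0.656 CPM in KO and 165.1 CPM in WT splenic macrophages, 0.196 CPM in KO and 105 CPM in WT Kupffer cells, and 0.151 CPM in KO and 8.41 CPM in WT alveolar macrophages. In microglia Cd79a averaged 0.704 CPM in KO and 0.832 CPM in WT. For Cr2 the log2 fold change in the fit of all 24 libraries was −4.99 in splenic macrophages, −7.33 in alveolar macrophages, −7.70 in Kupffer cells and 0.84 in microglia. For Ms4a1 it was −5.63, −5.43, −6.76 and −4.93 in the same order. The microglial value of Ms4a1 was not called (adjusted p = 0.492), while those of the other types were called. Neither Cr2 nor Ms4a1 was called for a splenic effect unlike that of the other 3 types (adjusted p = 1 and 1). The difference was −0.26 for Cr2 and 0.08 for Ms4a1. Its SE was derived from the test statistic and is not usable for differences this near 0. For Ms4a1 it came out at 0.56, under the 0.68 of the other types' mean effect alone. The contrast therefore could not decide whether the effects of either gene were alike across types.

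Another group of called genes outside the B cell list was lower in KO and is known from B cells as well as from other blood cells. Siglecg, an inhibitory lectin of B cells, had 2.50, 2.27 and 3.04 CPM in KO, against 78.9, 36.7 and 42.2 CPM in WT (−4.29 ± 0.32; adjusted p = 0.00581). Tnfrsf13b, the receptor TACI, had 1.03, 1.67 and 1.38 CPM, against 15.8, 14.4 and 13.4 CPM (−3.37 ± 0.27; adjusted p = 0.00581). Cd37, a tetraspanin of lymphocytes and myeloid cells, had 11.5, 9.997 and 8.98 CPM, against 120.4, 73.1 and 92.2 CPM (−3.18 ± 0.21; adjusted p = 0.00403). Mef2c, a transcription factor of B cells, myeloid cells and muscle, had 5.08, 6.66 and 6.75 CPM, against 86.1, 68.5 and 50.8 CPM (−3.43 ± 0.23; adjusted p = 0.00403). These 4 genes kept a measurable level in every KO library, and their calls held with any 1 library left out. Bach2, a repressor of B and T cells, had 8.74, 4.44 and 6.63 CPM, against 22.7, 26.1 and 21.0 CPM (−1.78 ± 0.26; adjusted p = 0.0402, not called without any 1 library (0.0586 to 0.155)). Among called genes named after their values were seen, the forkhead factors Foxp1 and Foxo1 were at 42.7 ± 4.08 and 34.3 ± 0.873 CPM in KO, against 103 ± 9.88 and 79.9 ± 15.6 CPM in WT (mean ± SD, n = 3), with log2 fold changes of −1.22 and −1.17. The Foxp1 call did not hold without KO1 (0.0533), KO2 (0.0633), WT1 (0.0565) or WT2 (0.0746), and that of Foxo1 did not hold without any 1 library other than WT3 (0.0565 to 0.104).

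The genes called lower also held Slco4a1, Scd1 and C3, which belong to neither the B cell list nor the immunoglobulin genes. Slco4a1, an organic anion transporter (chromosome 2, 180456245 to 180474867, plus strand), had no count in any KO library, against 19.3, 6.43 and 3.07 CPM in WT libraries, and was at least 544-fold lower (adjusted p = 0.0463). WT1 stood far above WT2 and WT3, and the call did not hold without any 1 library other than WT3 (0.0613 to 0.138). Scd1, a fatty acid desaturase (chromosome 19, 44394455 to 44407879, minus strand), had 6.46, 12.1 and 13.2 CPM in KO, against 92.2, 64.5 and 67.2 CPM in WT (−2.77 ± 0.29; adjusted p = 0.0106). C3, the central complement protein (chromosome 17, 57203970 to 57228136, minus strand), had 49.6, 48.3 and 52.0 CPM, against 245, 167 and 132 CPM (−1.81 ± 0.21; adjusted p = 0.0157). The KO libraries lay close together for C3, the WT libraries were spread, and the groups did not overlap for either gene. Neither call was firm against the choice of libraries: Scd1 was not called without KO2 (0.059), WT1 (0.0505) or WT2 (0.0616), and C3 was not called without KO1 (0.082), KO2 (0.0929), KO3 (0.0824) or WT2 (0.0753).

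Scd1 was the only called gene among 16 tested genes of the cholesterol-responsive LXR list, 7 of which were higher and 9 lower in KO (median −0.10). C3 was likewise the only called gene of 18 in the complement list (7 higher, 11 lower, median −0.08). C1qb, a subunit of the first complement component that macrophages make, had 3159, 3128 and 3093 CPM in KO, against 3567, 3396 and 3791 CPM in WT (adjusted p = 0.547). In Kupffer cells, mean C3 was 134 CPM in KO and 132 CPM in WT, and mean Scd1 was 61.5 CPM in KO and 82.9 CPM in WT, beside the Cd79a means given above. Beside these genes in the spleen, the B cell list stood at 438, 418 and 573 CPM in KO, against 3351, 2408 and 2540 CPM in WT, and its part in the results for the genes called lower outside that list was not tested.

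Gpr141, an orphan receptor of myeloid cells (chromosome 13, 19749682 to 19824257, minus strand), had 3.15, 5.23 and 5.63 CPM in KO, against 44.7, 54.5 and 66.8 CPM in WT (−3.53 ± 0.28; adjusted p = 0.00581). It was 1 of 2 called members of the classical monocyte list, the other being Ms4a4c, at 3.73, 3.04 and 1.90 CPM in KO, against 19.5, 11.2 and 15.6 CPM in WT (adjusted p = 0.0356, not called without any 1 library (0.0804 to 0.139)). Of the 14 members, 8 were higher and 6 lower in KO (median 0.18). At an unadjusted p under 0.05 there were 8, and DESeq2 called 3 higher and 4 lower. The list's summed CPM was 214, 294 and 237 in KO libraries, against 343, 277 and 337 in WT libraries, which overlapped. Ly6c2, which marks classical monocytes, had 4.03, 3.89 and 4.05 CPM in KO, against 1.71, 1.86 and 3.57 CPM in WT. Their chemokine receptor Ccr2 had 7.15, 2.09 and 2.25 CPM in KO, against 1.71, 2.45 and 1.6 CPM in WT, with overlap.

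Myo1e, an unconventional myosin, had 7.63, 3.68 and 10.9 CPM in KO, against 92.0, 55.9 and 50.3 CPM in WT (−3.12 ± 0.40; adjusted p = 0.0263, not called without any 1 library other than WT3 (0.0571 to 0.103)). Trp53i11, a p53-inducible gene, had 4.12, 7.17 and 3.75 CPM, against 61.1, 33.5 and 33.7 CPM (−3.03 ± 0.36; adjusted p = 0.02, not called without KO1 (0.0921), KO3 (0.0811), WT1 (0.054) or WT2 (0.072)). Ifitm3, an interferon-induced membrane protein that was singled out after its values were seen, had 93.3, 90.7 and 101 CPM, against 206, 183 and 209.9 CPM (−1.03 ± 0.10; adjusted p = 0.0106, not called without KO1 (0.0567), KO2 (0.059) or WT2 (0.0539)). Each KO library was lower than each WT library at these genes. None of the 31 tested genes of the interferon-stimulated list was called by edgeR (12 higher, 19 lower, median −0.11), 7 had an unadjusted p under 0.05, and DESeq2 called 1.

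Of the genes of antigen presentation through MHC class II, 1 was called. Cd74, the invariant chain, had 12041, 9125 and 7131 CPM in KO, against 10840.0, 8211 and 6804 CPM in WT (adjusted p = 0.815). H2-Ab1, a chain of the presenting molecule, had 3227, 2474 and 2132 CPM, against 3559, 2162 and 1931 CPM (adjusted p = 0.93). Only H2-DMb2, a chain of the peptide-loading factor, was called among 14 list members (6 higher, 8 lower), at 34.0, 27.9 and 32.4 CPM in KO, against 173, 97.4 and 106 CPM in WT (−1.95 ± 0.22; adjusted p = 0.0131). Its call did not hold without KO1 (0.0674), KO2 (0.084), KO3 (0.0772) or WT2 (0.0528). H2-Ob, which holds back peptide loading in B cells, had 23.1, 34.9 and 22.4 CPM in KO, against 155, 76.0 and 78.1 CPM in WT, and was just short of a call (adjusted p = 0.0608).

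Of the 23 genes called higher in KO, the one that stayed called in all 6 fits with a library left out was Arc, an activity-regulated gene known from neurons and migratory dendritic cells (chromosome 15, 74669083 to 74672570, minus strand). It had 118, 128 and 128 CPM in KO libraries, against 18.02, 25.3 and 21.8 CPM in WT libraries (2.56 ± 0.17; 95% interval 2.17 to 2.95; adjusted p = 0.00403). The KO libraries lay close together, far above the WT libraries, but the gene was not called for the spleen in the fit of all 24 libraries (adjusted p = 0.197). Bmpr1a, a type I receptor of bone morphogenetic proteins (chromosome 14, 34410734 to 34503341, minus strand), had 19.9, 15.9 and 25.9 CPM, against 3.03, 2.995 and 3.77 CPM (2.68 ± 0.24; adjusted p = 0.00805, not called without WT2 (0.0616)). No other gene of the 28 in the TGF-beta and BMP list was called (12 higher and 16 lower in all, median −0.06). The type II receptor Bmpr2 had 5.07, 2.31 and 2.33 CPM, against 10.9, 5.11 and 3.56 CPM in WT, the signal carrier Smad1 had 72.9, 58.1 and 62.1 CPM, against 49.0, 77.5 and 65.8 CPM, and the target gene Id1 had 61.5, 18.7 and 26.6 CPM, against 23.99, 14.5 and 54.6 CPM. The genotypes overlapped at these 3 genes.

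Arc is often counted among the immediate early genes, which respond within minutes to stimulation. None of the 28 tested genes of that list was called by edgeR, 19 were higher in KO (median 0.21), 13 had an unadjusted p under 0.05 and DESeq2 called 6, all higher. Egr1, a zinc-finger factor of this group, had 4346, 4386 and 3327 CPM in KO, against 1544, 1351 and 2363 CPM in WT (1.24 ± 0.24; adjusted p = 0.0834). Jun had 7585, 5727 and 5244 CPM, against 3003, 3513 and 4532 CPM (adjusted p = 0.195), and Fos had 9297, 6499 and 5206 CPM, against 4117, 2460.0 and 5582 CPM (adjusted p = 0.38). KO and WT did not overlap for Egr1 and Jun and overlapped for Fos. The summed CPM of the list was 69080, 61220 and 51370 in KO libraries, against 41380, 41810 and 46610 in WT libraries. The part of this list in the Arc result was not tested.

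G0s2, an inhibitor of triglyceride breakdown, had 15.7, 7.38 and 11.4 CPM in KO, against 1.22, 1.10 and 2.24 CPM in WT (2.95 ± 0.42; adjusted p = 0.0352, not called without any 1 library other than WT3 (0.0646 to 0.135)). Plin2, which coats lipid droplets, had 1779.9, 1398 and 1618 CPM, against 559, 893 and 883 CPM, and was not called (1.07 ± 0.21; adjusted p = 0.0877). Both genes were higher in every KO library than in any WT library. None of the 22 tested fatty acid oxidation genes, a list that holds Plin2, was called by edgeR (12 higher, 10 lower, median 0.02), 3 had an unadjusted p under 0.05, and DESeq2 called 2, both higher. Dbn1, an actin-binding protein, had 9.34, 12.7 and 10.7 CPM, against 1.56, 0.402 and 1.17 CPM (3.43 ± 0.49; adjusted p = 0.0353). The Dbn1 call did not hold without any 1 library (0.0545 to 0.125). Among the other genes called higher, which fell outside the naming rule and were singled out after their values were seen, Olfml2b, Cav1, Lratd1 and Dach2 had no count in any WT library and were at least 157-, 94.0-, 71.3- and 43.2-fold higher in KO. Their mean levels in KO were low, at 2.83 ± 1.57, 1.69 ± 0.651, 1.28 ± 0.562 and 0.777 ± 0.200 CPM (SD, n = 3), and each call was lost when any 1 library was left out (adjusted p = 0.0517 to 0.189).

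**Figure D3:**
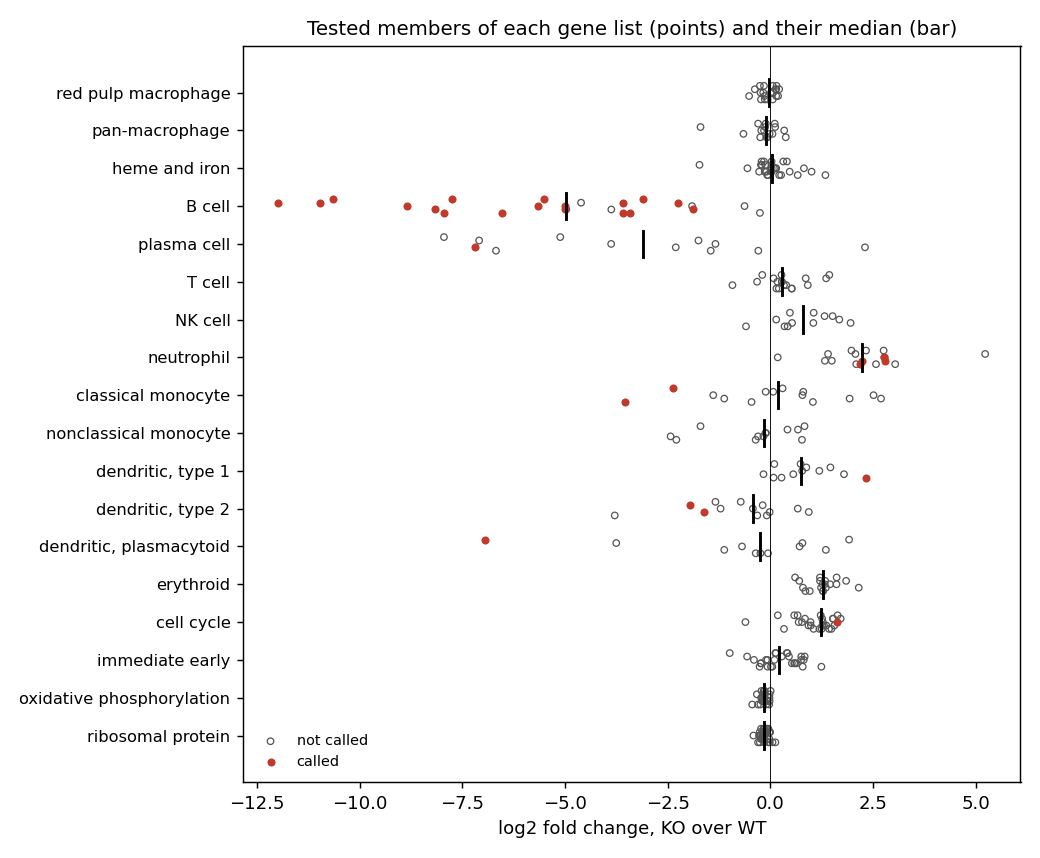
Log2 fold change, KO over WT, of the tested members of 18 gene lists (horizontal axis; 1 row per list). Each point is a gene, red where called, and the bar is the median of the list: the B cell list has its median at −4.98 and 18 called genes, the neutrophil list at 2.23 and 5, and the red pulp macrophage list at −0.03 and 0.

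Of the 17 genes of the neutrophil list, 5 were called higher in KO and 12 were not called. All 17 passed the filter and had a positive log2 fold change (median 2.23). The genotypes did not overlap at 12 of the 17, against 20% of all genes tested. The summed CPM of the 17 genes was 674, 808 and 916 in KO libraries, against 243, 184 and 259 in WT libraries. Ltf, the iron-binding lactoferrin of secondary granules (chromosome 9, 111019271 to 111042767, plus strand), had 128, 180.1 and 192 CPM in KO, against 31.2, 15.6 and 29.6 CPM in WT (2.76 ± 0.29; adjusted p = 0.0106). Ngp, another granule protein, had 152, 208 and 222 CPM, against 24.4, 16.7 and 46.9 CPM (2.76 ± 0.39; adjusted p = 0.0345). Every KO library was above every WT library at both. S100a8, which forms calprotectin with S100a9, had 74.8, 64.9 and 94.7 CPM in KO, against 15.6, 10.8 and 26.5 CPM in WT (2.18 ± 0.33; adjusted p = 0.042). S100a9 itself had 97.4, 91.8 and 132 CPM, against 22.5, 16.5 and 31.0 CPM (2.23 ± 0.25; adjusted p = 0.0143). Lcn2, an iron-siderophore binder, had 26.9, 21.6 and 40.7 CPM, against 5.20, 2.03 and 6.04 CPM (2.78 ± 0.43; adjusted p = 0.0448). These 3 genes were also higher in all KO than in all WT libraries. The Ltf call did not hold without KO2 (0.059) or KO3 (0.0563), nor did that of Lcn2 without any 1 library (0.0715 to 0.146). Those of Ngp, S100a8 and S100a9 held without WT3 but were lost without any other 1 library (adjusted p = 0.082 to 0.136, 0.104 to 0.157 and 0.059 to 0.0836).

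Other genes of the neutrophil list were not called, and some were rare. Csf3r, the receptor of the growth factor G-CSF, had 111, 119.8 and 108 CPM in KO, against 116, 96.7 and 95.7 CPM in WT, with overlapping genotypes (adjusted p = 0.633). Ly6g, the surface marker by which neutrophils are sorted, had 0.905, 0.698 and 1.28 CPM in KO, against 0, 0 and 0.0711 CPM in WT, a low level in each library but without overlap. Elane, a protease of the primary granules, had 2.93, 5.29 and 6.94 CPM in KO, against 0, 1.57 and 0.284 CPM in WT, and Mpo, their peroxidase, had 3.15, 23.2 and 15.7 CPM, against 4.002, 11.1 and 2.08 CPM. None of these 3 was called (adjusted p = 0.419 for Elane, 0.601 for Mpo and 0.165 for Ly6g). Of the 17 genes, edgeR called 1 without KO1, 0 without KO2, 0 without KO3, 2 without WT1, 1 without WT2 and 5 without WT3, with 12, 11, 11, 12, 14 and 12 at an unadjusted p under 0.05 in the same order. The splenic comparison in the fit of all 24 libraries called 0, with 7 at an unadjusted p under 0.05, and DESeq2 on all 6 libraries called 11.

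Markers of conventional type 1 dendritic cells were in part higher in KO. Xcr1, the chemokine receptor of these cells, had 15.2, 28.0 and 16.7 CPM in KO, against 4.85, 3.10 and 4.34 CPM in WT (2.34 ± 0.32; adjusted p = 0.032, not called without any 1 library (0.0646 to 0.128)). Cd8a, a coreceptor that splenic dendritic cells of this type share with T cells, had 20.3, 33.0 and 21.6 CPM, against 7.65, 3.69 and 6.77 CPM (2.10 ± 0.33; adjusted p = 0.049, not called without any 1 library (0.0931 to 0.147)). Clec9a, their receptor for dead cells, had 11.1, 12.1 and 10.99 CPM, against 4.90, 5.02 and 2.88 CPM, and was not called (adjusted p = 0.0757). The 3 genes were higher in every KO library. Irf8, a factor these cells need, had 986, 783 and 876 CPM, against 726, 919.8 and 925 CPM in WT, and Batf3, another, had 25.1, 21.4 and 23.0 CPM, against 17.9, 18.3 and 22.9 CPM. Both overlapped between genotypes. Of 12 list members, 11 were higher, 1 was called (Xcr1), 5 had an unadjusted p under 0.05 and DESeq2 called 5, all higher, and their sum was 2226, 2275 and 2270 CPM in KO, against 1835, 2106 and 2277 CPM in WT.

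The type 2 dendritic cell list ran mostly lower. Of 13 tested members, 11 were lower in KO (median −0.43) and 2 were called, H2-DMb2 and Dtx1, a regulator of Notch signalling at 14.6, 14.4 and 10.3 CPM in KO, against 49.2, 35.8 and 39.8 CPM in WT (adjusted p = 0.0253, not called without any 1 library (0.061 to 0.089)). Esam, an adhesion molecule of these cells, had 7.24, 5.33 and 10.52 CPM, against 17.1, 18.7 and 18.8 CPM (adjusted p = 0.103), and Irf4 had 5.93, 13.9 and 5.19 CPM, against 25.2, 14.9 and 25.8 CPM (adjusted p = 0.293). At an unadjusted p under 0.05 there were 5, and DESeq2 called 5, all lower. The sum of the list was 764, 863 and 713 CPM in KO, against 1152, 1027 and 939.9 CPM in WT. In the plasmacytoid list, Ly6d, which B cells also express, was the 1 called gene of 11, at 0.832, 0.814 and 0.0949 CPM, against 89.8, 56.1 and 75.5 CPM (adjusted p = 0.00942, not called without WT2 (0.0528)). Siglech, which defines these cells, had 0.434, 0.0194 and 0.0474 CPM, against 2.55, 2.34 and 2.15 CPM, and was not called (adjusted p = 0.22). Of the 11 plasmacytoid genes 4 were higher and 7 lower, 5 had an unadjusted p under 0.05 and DESeq2 called 3, all lower. Their list summed to 126, 118 and 112 CPM in KO, against 250, 174 and 206 CPM in WT, without overlap.

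No gene of the T cell and natural killer cell lists was called by edgeR. The called coreceptor gene Cd8a was in neither of them, nor in the type 1 dendritic cell list. Of 18 T cell genes 15 were higher in KO (median 0.28), and of 12 natural killer cell genes 11 were higher (median 0.79). EdgeR called 0 in both lists, with 4 and 3 genes at an unadjusted p under 0.05, and DESeq2 called 2 and 2. Cd3e, of the T cell receptor complex, had 9.23, 9.11 and 8.71 CPM in KO, against 13.7, 6.46 and 4.23 CPM in WT, and Trac had 16.4, 17.5 and 11.7 CPM, against 22.3, 10.6 and 10.1 CPM. The T cell receptor genes, 29 of which were tested, held 0 called genes by edgeR and by DESeq2, with 2 at an unadjusted p under 0.05. Il2rb, a receptor chain for interleukins 2 and 15 in natural killer cells, had 83.3, 93.5 and 60.5 CPM, against 36.8, 24.1 and 16.3 CPM (1.68 ± 0.31; adjusted p = 0.0757), without overlap and without a call. The natural killer list summed to 190, 175 and 134 CPM in KO, against 126, 80.0 and 63.0 CPM in WT.

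**Figure D4:**
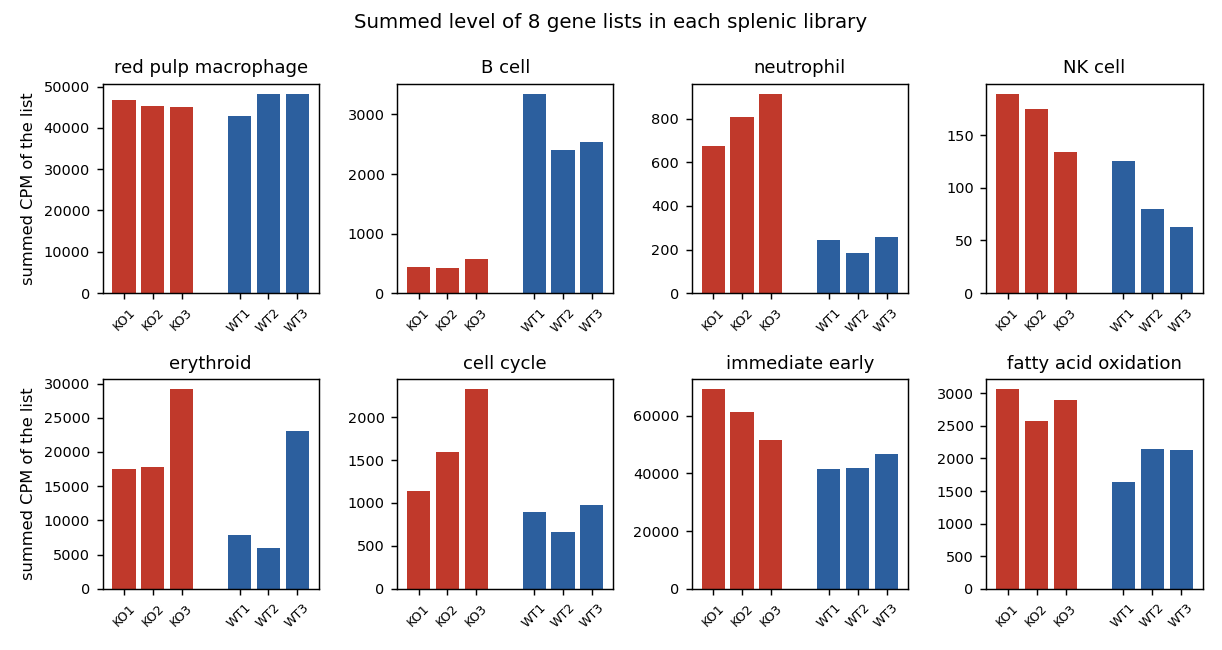
Summed CPM of 8 gene lists in each splenic library (vertical axes from 0), KO1 to KO3 left and WT1 to WT3 right. B cell sums reach at most 573 in KO and at least 2408 in WT, neutrophil sums at least 674 in KO and at most 259 in WT, red pulp macrophage sums overlap, and the erythroid sum of WT3 lies among the KO values.

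Erythroid and cell cycle genes had mostly positive fold changes, and 1 of them was called. All 19 erythroid genes had a positive log2 fold change (median 1.27), but edgeR called none, with 14 at an unadjusted p under 0.05 and 8 called by DESeq2, all higher. Their sum was 17440, 17840 and 29150 CPM in KO, against 7892, 5987 and 23050 CPM in WT. WT3 lay above KO1 and KO2, so the genotypes overlapped. Gata1, the erythroid transcription factor, had 22.4, 24.5 and 54.8 CPM in KO, against 3.59, 6.94 and 12.6 CPM in WT (adjusted p = 0.169), and Hba-a1, an alpha globin, had 4718, 4649 and 7750.2 CPM, against 2227, 1743 and 6733 CPM (adjusted p = 0.663). Of 28 cell cycle genes 27 were higher in KO (median 1.24), 22 had an unadjusted p under 0.05, DESeq2 called 18 and edgeR called 1. That gene was Kif11, a mitotic spindle motor, at 24.4, 36.9 and 45.5 CPM in KO, against 13.1, 10.3 and 12.3 CPM in WT (1.62 ± 0.24; adjusted p = 0.0386, not called without any 1 library other than KO1 (0.0882 to 0.149)). Mki67, a marker of dividing cells, had 141, 168 and 280.1 CPM, against 60.6, 35.9 and 113 CPM, without overlap (adjusted p = 0.232). Erythroid precursors divide, and the part of the erythroid RNA in the cell cycle values was not tested.

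The genes of the red pulp macrophage programme itself showed no called difference. Of 20 identity genes 10 were higher and 10 lower in KO (median −0.03), edgeR and DESeq2 called 0, and 2 had an unadjusted p under 0.05. Their sum was 46630, 45370 and 45130 CPM in KO libraries, against 42930, 48280 and 48200 CPM in WT libraries. Vcam1, an adhesion molecule of red pulp macrophages, had 11404, 11102 and 10885 CPM in KO, against 9228, 10761 and 10927 CPM in WT, and Cd163, the scavenger receptor for hemoglobin, had 727, 648 and 693 CPM, against 597, 512 and 726 CPM. The identity genes with the most negative values were Kcnj10, a potassium channel (−0.52 ± 0.16; adjusted p = 0.265), and Nr1h3, which encodes the sterol receptor LXR-alpha (−0.38 ± 0.12; adjusted p = 0.289). Of 28 heme and iron genes 16 were higher and 12 lower (median 0.03), edgeR called 0, 3 had an unadjusted p under 0.05 and DESeq2 called 1. Fth1, the ferritin heavy chain, had 7863, 7244 and 6037 CPM in KO, against 10175, 8358 and 6842 CPM in WT (−0.21 ± 0.16; adjusted p = 0.679). Slc25a37, the mitochondrial iron importer that erythroid cells also use, had 83.8, 122 and 150.0 CPM, against 32.5, 32.3 and 78.9 CPM (1.34 ± 0.40; adjusted p = 0.254).

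General macrophage genes held no edgeR call either. Of 16 pan-macrophage genes 5 were higher and 11 lower in KO (median −0.11), edgeR called 0, 3 had an unadjusted p under 0.05 and DESeq2 called 1. Their sum was 24300, 24130 and 24150 CPM in KO libraries, against 25510, 27310 and 28450 CPM in WT libraries, without overlap. The genotypes did not overlap at 7 of the 16, against 20% of all genes tested. Csf1r, the growth factor receptor of macrophages, had 7543, 7176 and 7304 CPM in KO, against 8086, 8756 and 9575 CPM in WT (−0.22 ± 0.10; adjusted p = 0.439), lower in every KO library than in any WT library but not called. Markers of the macrophages that line the marginal zone varied between WT libraries. Siglec1, the sialoadhesin of metallophilic macrophages, had 269, 269 and 249.96 CPM in KO, against 109, 105 and 256 CPM in WT (0.78 ± 0.35; adjusted p = 0.452), and without WT3, the WT library at the KO level, it was called (adjusted p = 0.0237). Marco, a scavenger receptor of marginal zone macrophages, had 38.5, 43.5 and 117 CPM, against 284, 94.7 and 98.5 CPM (adjusted p = 0.457). Cd209b, a lectin of the same cells, had no count in KO, against 0.646, 1.13 and 0.640 CPM in WT (adjusted p = 0.0547). Oxidative phosphorylation genes (24 of 25 lower, median −0.15) and ribosomal protein genes (33 of 35 lower, median −0.15) leaned to 1 side by small amounts, and neither list held a called gene by edgeR or by DESeq2, with 2 and 1 at an unadjusted p under 0.05.

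The effect in the spleen was then set against the mean effect in the other 3 macrophage types, in a fit of all 24 libraries. Of 24030 genes tested, 47 (0.196%) were called, 19 with a higher and 28 with a lower effect in the spleen, and 20 of the 47 were also among the 133. The count was 25 without KO2, 20 without KO3 and 18 without WT1. Cd37 had the smallest adjusted p: its log2 fold change was −3.18 in the spleen, 0.52 in alveolar macrophages, −0.47 in Kupffer cells and −0.24 in microglia (difference −3.11 ± 0.24; adjusted p = 1.18e-06). Tnfrsf13b differed by −2.90 ± 0.29 (adjusted p = 7.92e-05), Scd1 by −3.91 ± 0.57 (0.00348) and C3 by −2.86 ± 0.45 (0.00837). These 4 genes stayed called with any 1 splenic library left out. For Scd1 the values were −2.77 in the spleen, 1.59 in alveolar macrophages, −0.39 in Kupffer cells and 2.24 in microglia, where its mean level was 0.575 CPM in KO and 0.122 CPM in WT.

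The mean level of Bmpr1a was higher in KO in all 4 types, and the difference was called in the spleen and in alveolar macrophages only. In the fit of all 24 libraries, Bmpr1a had an adjusted p of 0.223 in Kupffer cells and 0.765 in microglia. Its log2 fold change was 2.69 in the spleen, 1.75 in alveolar macrophages, 0.72 in Kupffer cells and 0.39 in microglia (difference 1.73 ± 0.23; adjusted p = 0.00223, at most 0.0165 over 9 alternatives). Its mean levels in KO lay between 19.9 and 27.4 CPM in the 4 types, and those in WT between 3.27 and 17.0 CPM, with the spleen lowest. Arc averaged 125 CPM in KO and 21.7 CPM in WT splenic macrophages, 28.6 and 37.2 CPM in Kupffer cells, 2.98 and 3.16 CPM in alveolar macrophages, and 3.24 and 1.82 CPM in microglia. The Arc effect in the spleen was not called as unlike that of the other types (difference 2.44 ± 0.88; adjusted p = 0.402).

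**Figure D5:**
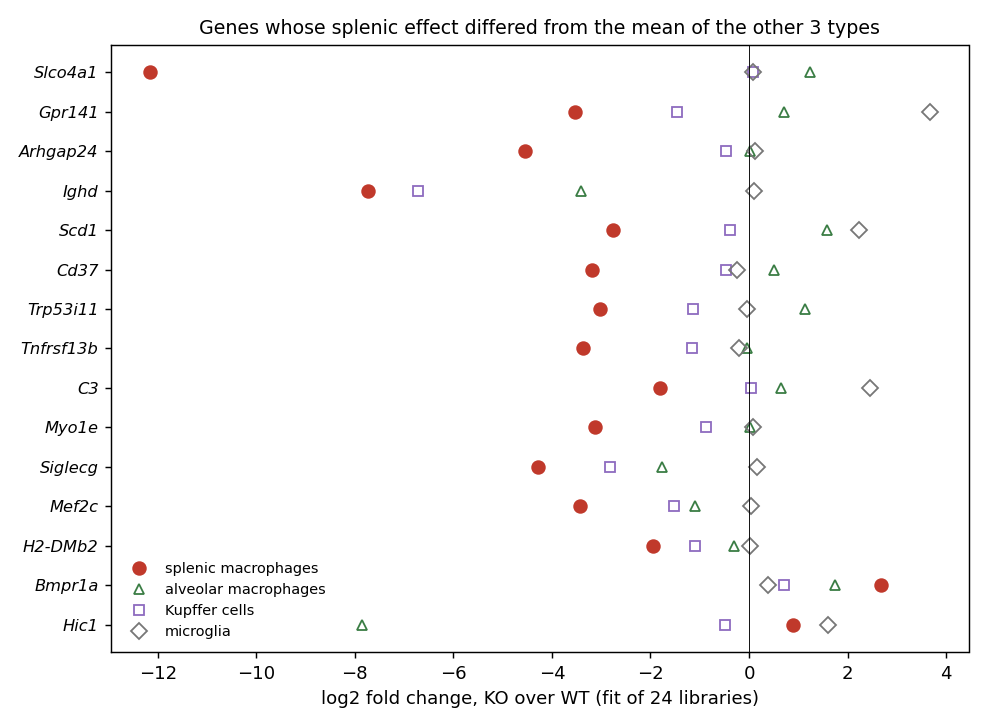
Log2 fold change, KO over WT, of 15 genes in splenic macrophages (red) and in alveolar macrophages, Kupffer cells and microglia (other symbols), from the fit of all 24 libraries. For Cd37, Tnfrsf13b and Scd1 the splenic value lies below the other 3, while for Bmpr1a it lies above them.

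Because Zeb2 and its relatives bind the E-box CACCTG, the promoters of called genes were read for it on both strands (CACCTG or its reverse complement CAGGTG). Promoter sequences came from RefSeq (build GRCm38.p6, the build also called mm10) and end shortly after each annotated start. The motif was in 5413 of 27025 promoters (20%) of that table and in 1948 of 11047 (17.6%) of those of tested genes. Of the genes called lower in KO, 48 had an entry and 12 held the motif (25%), and of those called higher 20 had an entry and 5 held it (25%). Among called genes of the B cell list the count was 6 of 12 (50%). A match is a run of letters and not a binding site, and these small counts are given as a description. The sequences below are 5 promoters of called genes, chosen because they hold a match, and that of Bmpr1a, which had none. Most called genes with an entry had no match, among them Pax5, Ebf1, Pou2af1, Mef2c, Siglecg, Tnfrsf13b, Gpr141, Dennd5b and C3. They read 5′ to 3′ on the strand of the gene, with the matches in capitals, and positions count from the RefSeq start as base 1.

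Cd79a, lower in KO, at chr7:24897247-24897546 on the plus strand, has its match at −154. Cr2, lower in KO, at chr1:195176670-195176969 on the minus strand, has it at −88. Cd37, lower in KO, at chr7:45238790-45239089 on the minus strand, has it at −175. Ltf, higher in KO, at chr9:111019042-111019341 on the plus strand, has it at −113. S100a9, higher in KO, at chr3:90695672-90695971 on the minus strand, has it at −53. Bmpr1a, higher in KO, lies at chr14:34502497-34502796 on the minus strand.
Cd79a: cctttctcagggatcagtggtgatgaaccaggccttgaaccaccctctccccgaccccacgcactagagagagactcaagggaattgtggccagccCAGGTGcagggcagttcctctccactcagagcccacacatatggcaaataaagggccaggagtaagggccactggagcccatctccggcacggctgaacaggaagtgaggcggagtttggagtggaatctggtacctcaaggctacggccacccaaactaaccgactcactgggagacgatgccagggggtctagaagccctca
Cr2: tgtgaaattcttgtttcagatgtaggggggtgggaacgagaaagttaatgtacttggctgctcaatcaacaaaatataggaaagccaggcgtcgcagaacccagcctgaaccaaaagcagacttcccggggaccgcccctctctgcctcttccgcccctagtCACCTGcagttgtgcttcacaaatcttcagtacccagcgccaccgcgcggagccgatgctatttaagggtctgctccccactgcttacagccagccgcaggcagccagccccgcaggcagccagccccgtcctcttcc
Cd37: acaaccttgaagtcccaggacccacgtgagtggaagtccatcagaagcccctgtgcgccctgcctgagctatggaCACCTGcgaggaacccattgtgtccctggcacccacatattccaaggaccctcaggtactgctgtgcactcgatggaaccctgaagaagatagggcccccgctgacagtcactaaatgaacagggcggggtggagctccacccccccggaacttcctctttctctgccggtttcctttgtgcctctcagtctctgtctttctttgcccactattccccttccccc
Ltf: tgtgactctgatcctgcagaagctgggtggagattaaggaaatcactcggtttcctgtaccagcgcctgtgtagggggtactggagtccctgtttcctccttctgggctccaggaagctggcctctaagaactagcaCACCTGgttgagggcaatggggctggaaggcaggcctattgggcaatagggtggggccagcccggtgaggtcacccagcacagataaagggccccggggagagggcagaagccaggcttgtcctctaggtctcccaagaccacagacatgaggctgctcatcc
S100a9: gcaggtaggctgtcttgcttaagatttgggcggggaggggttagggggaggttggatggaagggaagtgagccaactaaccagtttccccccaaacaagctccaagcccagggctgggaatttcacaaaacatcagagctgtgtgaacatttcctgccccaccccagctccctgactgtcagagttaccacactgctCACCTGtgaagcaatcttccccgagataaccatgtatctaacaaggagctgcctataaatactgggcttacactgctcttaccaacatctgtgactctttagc
Bmpr1a: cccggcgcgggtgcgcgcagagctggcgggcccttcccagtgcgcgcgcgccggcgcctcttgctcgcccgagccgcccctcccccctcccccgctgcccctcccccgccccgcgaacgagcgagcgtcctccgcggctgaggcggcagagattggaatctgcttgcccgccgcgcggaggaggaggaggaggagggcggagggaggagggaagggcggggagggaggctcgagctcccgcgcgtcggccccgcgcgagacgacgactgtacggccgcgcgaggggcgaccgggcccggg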

How the data were processed

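Macrophage RNA was sequenced in 24 libraries. The labels' protocols name the NucleoSpin RNA XS kit for isolation, the SMARTer Ultra Low kit for library construction and a NovaSeq X Plus sequencer. Per the submitters' processing notes, reads were handled on mm10 with tools that include STAR, featureCounts, Subread, Salmon and DRAGEN, whose roles are not stated. The authors deposited a table of counts, CPM and TPM per gene and library. The deposited counts were whole and unnormalized, and every test used them. Recomputing CPM from these counts gave the deposited CPM within 4.7e-11. No test used the deposited TPM, of which 4 splenic columns were treated as a score because repeated rows inflated their sums. Of 55774 rows, 287 repeated a gene and were dropped. Gene coordinates (1-based) are those of GENCODE M21, which held 99.83% of the tested genes.

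Splenic KO libraries were set against splenic WT libraries with edgeR 4.0.16 (two-sided quasi-likelihood test; R 4.3.3), with TMM scaling, filterByExpr at a minimum count of 10 and Benjamini-Hochberg adjustment over all genes tested, and genes were called at an adjusted p under 0.05. All adjusted p-values are from edgeR unless DESeq2 1.42.0 is named. Each SE is the absolute log2 fold change divided by the square root of edgeR's F statistic. The contrast with the other 3 types used 1 fit of all 24 libraries, which treats libraries of different types as independent. With 3 against 3 libraries an exact two-sided permutation test cannot go below 0.1, so none was used. Tested on simulated data with 200 changed genes among 18310, the fit recovered 178. The simulation gave all genes the same dispersion and planted changes only in genes that were not rare. It therefore checks that the fit runs properly and does not measure its power on these libraries. Reads carried no molecular identifiers, so floors cover counting error only.

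The comparison, the gene lists and the naming rule were chosen with earlier results of these data known. Named genes were Spic, Hmox1, Slc40a1, Zeb2, Zeb2os, Zeb1 and Maf; the 12 highest and 12 lowest called genes without overlap at a mean of at least 5 CPM, and again at 50 CPM; up to 8 called members of each list, filled up to 3 by level; and 8 genes of the contrast. The rule left out immunoglobulin and T cell receptor segments and unnamed gene models. Some genes that the rule names are not reported here. Further list members were named after their values were seen. Alternatives were DESeq2's size factors, no or a stricter filter (1 CPM in 3 libraries), the replicate block, each library left out, DESeq2 and the fit of 24 libraries.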

Additional observations from a re-analysis of the deposited data

Results flagged for a closer look

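For 15 named genes the KO effect in splenic macrophages differed from the mean effect in the other 3 macrophage types (splenic log2 fold change minus the mean of the others, ± SE, edgeR, 24 libraries). The B cell related ones were Ighd at −4.39 ± 0.80 (adjusted p = 0.0219), Siglecg at −2.80 ± 0.52 (adjusted p = 0.0255), Tnfrsf13b at −2.90 ± 0.29 (adjusted p = 7.92e-05), Cd37 at −3.11 ± 0.24 (adjusted p = 1.18e-06), Mef2c at −2.56 ± 0.43 (adjusted p = 0.0119) and H2-DMb2 at −1.48 ± 0.29 (adjusted p = 0.0414). In microglia, where mean Cd79a was 0.704 CPM in KO and 0.832 CPM in WT, the effect was 0.09 for Ighd and 0.15 for Siglecg. In Kupffer cells it was −6.72 for Ighd and −2.82 for Siglecg.

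The other genes with a more negative effect in the spleen were Slco4a1 at −12.62 ± 1.97 (adjusted p = 0.00969; a fitted value that depends on the prior count, because the KO libraries had no count), Gpr141 at −4.50 ± 0.85 (adjusted p = 0.0375) and Arhgap24, a GTPase-activating protein, at −4.43 ± 0.71 (adjusted p = 0.00914). Also more negative were Scd1 at −3.91 ± 0.57 (adjusted p = 0.00348), Trp53i11 at −3.01 ± 0.43 (adjusted p = 0.00348), C3 at −2.86 ± 0.45 (adjusted p = 0.00837) and Myo1e at −2.86 ± 0.45 (adjusted p = 0.00748). Arhgap24 was not called in the splenic comparison alone, at 0.470, 0 and 0.221 CPM in KO, against 11.3, 2.85 and 3.07 CPM in WT (adjusted p = 0.179).

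Bmpr1a at 1.73 ± 0.23 (adjusted p = 0.00223) and Hic1, a transcriptional repressor, at 3.14 ± 0.59 (adjusted p = 0.0282) had the more positive effect in the spleen. The Hic1 value rested on alveolar macrophages, where the effect was −7.85, while in the spleen it was 0.89 and was not called. With 1 splenic library left out, or with another scaling, filter or a replicate block, Cd37, Tnfrsf13b, Scd1, Trp53i11, C3, Myo1e and Bmpr1a stayed called in all 9 of these fits. Slco4a1 and Arhgap24 were lost in 1 fit, without KO3 (adjusted p = 0.0568 and 0.0584). Ighd and Mef2c were lost in 3 fits, at most 0.106 for Ighd without KO3 and 0.0585 for Mef2c without WT1. Gpr141 stayed called in 2, Siglecg and H2-DMb2 in 4 and Hic1 in 3 of the 9.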

How the results depend on the processing

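At these depths the floor of 3 counts over a group was 0.0176 CPM in KO and 0.018 CPM in WT, and levels under it could not be told from 0. Leaving out 1 library took the number of called genes to between 18 and 90, of genes higher in KO to between 2 and 26 and of genes lower in KO to between 16 and 64. It took the called B cell genes to between 7 and 16, the called neutrophil genes to between 0 and 5 (11 to 14 at an unadjusted p under 0.05), and the genes whose splenic effect differed from the other types to between 18 and 59. Without a filter on low counts, 330 genes were called (109 higher, 221 lower) and 8 of the neutrophil list. The filter of 1 CPM in 3 libraries called 35 higher. DESeq2 called 988 of 20435 genes (543 higher, 445 lower) and 11 of the neutrophil list. The fit of all 24 libraries called 38 higher and 0 of the neutrophil list (7 at an unadjusted p under 0.05). With the replicate block, 10 genes were called (2 higher, 8 lower), with 5 of the B cell and 1 of the neutrophil list. Libraries that shared a number deviated together little (correlations of 0.0062, −0.00323 and 0.0336), so the numbers were not taken to pair them. The fits with a library left out had fewer samples, and the cause of the other moves was not tested. None of the 133 called genes changed sign under any alternative that tested it, and the log2 fold change of Zeb2 stayed between 0.06 and 0.12 without a call. Of 43 named called genes, DESeq2's size factors lost 1, the block 33, a left-out library 12 to 30 and the fit of 24 libraries 14.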
